A study of Homo sapiens with 8 samples.

Results

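The cell cycle and DNA replication genes described here are 47 genes chosen by name: the proliferation antigen Ki-67, cyclins and cyclin-dependent kinases of G1, S phase and mitosis, proteins that license and fire replication origins, enzymes that supply deoxynucleotides, and kinases, checkpoint and spindle proteins of mitosis. Their symbols were looked up in a table of 15811 genes, and 47 of 47 were found. RNA was sequenced from H9, an established line of human embryonic stem cells, in 4 EXT1-/- and 4 WT libraries. The EXT1-/- cells were a single H9 line whose EXT1 locus had been targeted with CRISPR/Cas9, and by the labels they lack heparan sulfate, the glycan whose chain the EXT1 enzyme builds. The WT cells were wild-type H9. Cells of both genotypes had been grown in E8 medium and were collected after 28 h in RPMI-1640 with 6 µM CHIR-99021, an inhibitor of the kinase GSK3 that activates β-catenin and starts mesendoderm differentiation. With 1 line per genotype, an effect of EXT1 loss and any other difference between these lines cannot be told apart, and no uninduced library was analysed here. The labels do not say whether replicates were grown as separate cultures, and a p-value then reflects only how far these libraries scatter, which may be technical.

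A cell passes from G1 into S phase when D-type cyclins with CDK4 or CDK6, and then cyclin E with CDK2, phosphorylate the retinoblastoma protein RB1 and so release E2F transcription factors, which activate genes of DNA replication. In late mitosis and G1 the origin recognition complex, CDC6 and CDT1 load the MCM helicase onto origins. CDC45 and the GINS complex join the helicase in S phase, and later a second wave of transcription supplies cyclin B, CDK1 and the proteins of the spindle. Human embryonic stem cells are known for a short G1 phase, which lengthens as they differentiate.

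The 8 libraries held 37737058 to 40017763 normalised read counts each. EXT1 itself had 890, 894, 915 and 980 normalised counts in EXT1-/- replicates 1 to 4, against 1776, 1499, 1464 and 1508 in WT replicates 1 to 4, and the groups did not overlap. Since transcript can remain from a disrupted locus, this level does not measure the loss of the enzyme. All 8 markers of pluripotent and induced mesendoderm cells were present in every library. Their summed level was 117162 to 129213 in EXT1-/- libraries and 175629 to 182094 in WT libraries. Much of that sum was LIN28A, which did not pass, at 65181 to 70656 in EXT1-/- libraries and 63160 to 65969 in WT libraries. The other 7 were lower with no overlap, from 0.35 of the WT mean in MIXL1 to 0.55 in POU5F1. Of 7 fibroblast markers 4 were measured, with sums of 5026 to 5669 in EXT1-/- libraries and 8418 to 9156 in WT libraries. All 4 were lower with no overlap. Of 7 neural progenitor markers 4 were measured, with sums of 22899 to 28516 in EXT1-/- libraries and 14234 to 17731 in WT libraries. All 4 were higher with no overlap, ZIC1 by 22.7-fold. Much of the neural progenitor sum was SOX2 and NES. SOX2 was at 8920 to 13929 in EXT1-/- libraries and 4430 to 8347 in WT libraries. NES was at 10831 to 11516 in EXT1-/- libraries and 8524 to 9537 in WT libraries. Whether these 4 markers reflect neural cells was not tested. Of 6 trophectoderm and amnion markers 5 were measured, with sums of 3621 to 6313 in EXT1-/- libraries and 3325 to 3651 in WT libraries. Most of that last sum was CDX2, which did not pass. TFAP2A was higher, with 215, 140, 127 and 273 normalised counts in EXT1-/- replicates 1 to 4, against 5, 3, 1 and 4 in WT replicates 1 to 4. HAND1 was higher too, at 40 to 104 in EXT1-/- libraries and 0 to 1 in WT libraries. GABRP was lower, at 4 to 11 in EXT1-/- libraries and 53 to 62 in WT libraries. The groups did not overlap in any of these 3. The defining markers COL3A1, LUM, DCN, SOX1, PAX6, HES5 and GATA3 were not analysed here. The part of these cell type markers in the results below was not tested. In bulk RNA, fewer cells in a cycle phase and less RNA per cell cannot be told apart. The libraries also formed 2 sets with no counterpart in the labels. The mitochondrial genome gave 9.18 to 9.38% of the counts in EXT1-/- replicates 1 and 4 and 10.67% in WT replicate 1 (the high set), and 5.30 to 5.43% in the other 5 libraries (the low set, with 2 EXT1-/- and 3 WT libraries).

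Of 19 replication genes 10 were higher in EXT1-/- cells, 14 of 16 mitotic genes did not pass the test in either direction, and the 3 largest differences lay among the D-type cyclins and their kinases. Of the 47 genes, 14 were higher in EXT1-/- cells (29.8%) and 2 were lower (4.26%) at a limma adjusted p below 0.05, and 31 did not pass. Among all 15811 genes, 15.2% were higher and 16.8% were lower by the same rule. A positive log2 fold change, EXT1-/- over WT, was found in 38 of the 47, and the median was 0.13, beside 0.01 for all genes. The groups did not overlap in 18 genes that were higher in EXT1-/- cells (38.3%) and in 2 that were lower (4.26%), while the shares among all genes were 16.3% and 17.2%. The differences were small: CCND1, CCND2 and CDK6 were the 3 of the 47 at least 1.5-fold apart (6.38%), against 18.0% of all genes, and the other 12 genes called higher were 1.10-fold to 1.42-fold above WT. When limma was also given the library set as a factor, 28 of the 47 were higher (59.6%) and 2 were lower, beside 26.2% and 25.6% of all genes and 51.8% in either direction. Within the 5 libraries of the low set 26 were higher and 2 were lower, beside 20.9% and 24.1% of all genes and 45.0% in either direction. All 16 genes called in 8 libraries were called in the same direction in both of these fits, which use the same libraries or part of them.

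**Figure D1:**
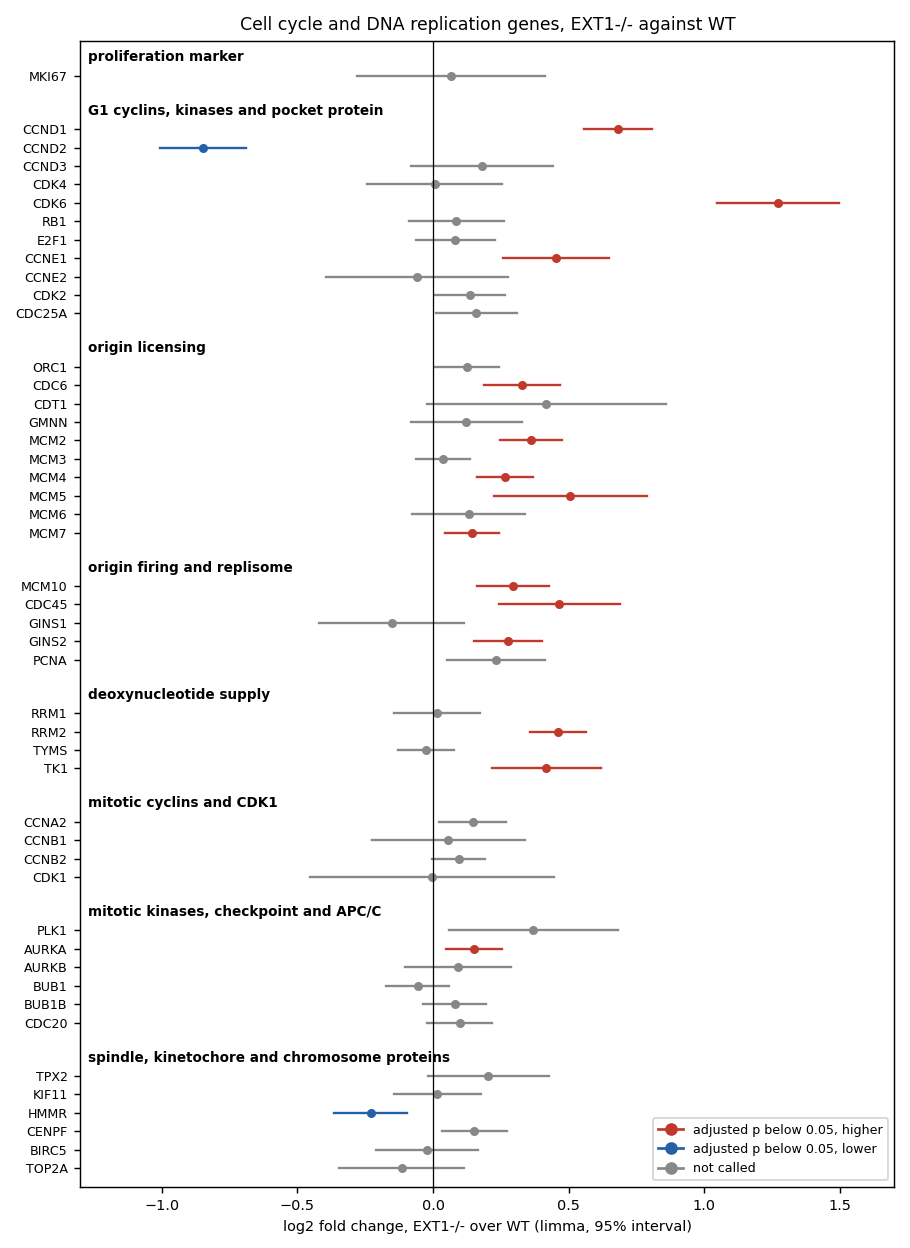
Log2 fold change of each of the 47 genes, EXT1-/- over WT, on the x axis, with its 95% interval from limma over 4 + 4 libraries; genes are grouped by role down the page and coloured by call (adjusted p below 0.05). CDK6 at 1.27 and CCND1 at 0.68 lie farthest to the right and CCND2 at -0.85 farthest to the left; all 10 licensing genes lie right of 0.

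MKI67, which encodes the Ki-67 antigen found in cycling cells of all phases but not in resting cells, did not pass the test. It had 15504, 12406, 11619 and 15800 normalised counts in EXT1-/- replicates 1 to 4, against 17483, 11982, 11858 and 11842 in WT replicates 1 to 4 (log2 fold change 0.066, 95% interval -0.28 to 0.41, limma adjusted p = 0.775). The 3 libraries of the high set, 2 EXT1-/- and 1 WT, held the 3 highest values, and the genotypes overlapped. In the fit with the set factor its log2 fold change was -0.048 (limma adjusted p = 0.337).

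The D-type cyclins CCND1 and CCND2 changed in opposite directions. CCND1 encodes cyclin D1, which is induced by mitogens and, in many cells, by β-catenin. It had 13052, 13962, 13613 and 14891 normalised counts in EXT1-/- replicates 1 to 4, against 8314, 9047, 8635 and 8583 in WT replicates 1 to 4. Every EXT1-/- library lay above every WT library, and the means were 13879.5 ± 772 in EXT1-/- cells and 8645 ± 303 in WT cells (SD, n = 4 each), a 1.61-fold difference (log2 fold change 0.68 ± 0.056 (SE), limma adjusted p = 3.13e-05). CCND2 encodes cyclin D2, which can take the place of cyclin D1 in activating CDK4 and CDK6. It had 3700, 4176, 4312 and 3868 normalised counts in EXT1-/- replicates 1 to 4, against 6547, 7422, 7581 and 7343 in WT replicates 1 to 4. Here every EXT1-/- library lay below every WT library (log2 fold change -0.85 ± 0.070 (SE), limma adjusted p = 3.40e-05), with means of 4014 ± 279.9 in EXT1-/- cells and 7223 ± 462 in WT cells (SD, n = 4 each). CCND3, for cyclin D3, was scarce, with 146, 146, 165 and 175 normalised counts in EXT1-/- replicates 1 to 4, against 139, 164, 132 and 124 in WT replicates 1 to 4, and the groups overlapped (log2 fold change 0.18, 95% interval -0.083 to 0.44, limma adjusted p = 0.271).

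Per kilobase of exon (the union of a gene's exons in GENCODE 29), the level of CCND1 was 2874 in EXT1-/- cells and 1789.8 in WT cells, that of CCND2 was 561 in EXT1-/- cells and 1009 in WT cells, and that of CCND3 was 27.2 in EXT1-/- cells and 24.1 in WT cells. On that scale CCND2 made up 16.2 ± 1.14% of the D-type cyclin transcripts in EXT1-/- cells and 35.7 ± 1.12% in WT cells, and CCND1 83.0 ± 1.13% in EXT1-/- cells and 63.4 ± 1.05% in WT cells (SD, n = 4 each). The sum of the 3 was 3462 ± 169 per kilobase in EXT1-/- cells and 2823 ± 118 in WT cells, so the lower CCND2 did not offset the higher CCND1 in the total. These shares come from the values tested above and were given no test of their own.

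CDK6, a catalytic partner of the D-type cyclins, had the largest fold change of the 47 genes. It had 2770, 2968, 2702 and 2778 normalised counts in EXT1-/- replicates 1 to 4, against 1406, 1185, 1086 and 1003 in WT replicates 1 to 4, and the groups did not overlap. The means were 2804 ± 114 in EXT1-/- cells and 1170.0 ± 174 in WT cells (SD, n = 4 each), a 2.40-fold difference (log2 fold change 1.27 ± 0.10 (SE), limma adjusted p = 2.52e-05). The difference was 1.38 on the log2 scale within the low set and 0.98 between the 2 EXT1-/- libraries and the 1 WT library of the high set. CDK4, the other catalytic partner, had 9197, 10382, 10835 and 9141 normalised counts in EXT1-/- replicates 1 to 4, against 7880, 10292, 10709 and 10690 in WT replicates 1 to 4. These groups overlapped (log2 fold change 0.0066, 95% interval -0.24 to 0.25, limma adjusted p = 0.970), and within each genotype the libraries of the high set were the lowest. Per kilobase of exon CDK4 was far more abundant than CDK6, at 3121 in EXT1-/- cells and 3123 in WT cells for CDK4 and 229 in EXT1-/- cells and 95.4 in WT cells for CDK6, so that CDK6 made up 6.86 ± 0.565% of the pair in EXT1-/- cells and 3.05 ± 0.928% in WT cells (SD, n = 4 each). In GENCODE 29 (GRCh38), CCND1 lies at chr11:69641087-69654474, plus strand, CCND2 at chr12:4273772-4305350, plus strand, and CDK6 at chr7:92604921-92836594, minus strand.

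CCNE1, for the cyclin E1 that activates CDK2 at the start of S phase, was also higher. It had 2329, 1857, 1867 and 2042 normalised counts in EXT1-/- replicates 1 to 4, against 1556, 1439, 1357 and 1548 in WT replicates 1 to 4. Every EXT1-/- library lay above every WT library (log2 fold change 0.45 ± 0.086 (SE), limma adjusted p = 0.00403), and the highest value was that of EXT1-/- replicate 1. CCNE2, its paralogue, was much scarcer, with 147 to 222 normalised counts over the 8 libraries, and did not pass (log2 fold change -0.059, 95% interval -0.39 to 0.28, limma adjusted p = 0.791).

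The targets and partners further along did not pass in 8 libraries. RB1, the pocket protein that holds E2F in check, had 1692, 1976, 1952 and 1637 normalised counts in EXT1-/- replicates 1 to 4, against 1596, 1740, 1722 and 1763 in WT replicates 1 to 4 (log2 fold change 0.085, 95% interval -0.089 to 0.26, limma adjusted p = 0.433). E2F1, a transcription factor that RB1 binds, had 1439, 1232, 1241 and 1365 normalised counts in EXT1-/- replicates 1 to 4, against 1271, 1244, 1233 and 1227 in WT replicates 1 to 4 (log2 fold change 0.082, 95% interval -0.063 to 0.23, limma adjusted p = 0.366). In both genes the genotypes overlapped. CDK2, the partner of cyclin E, stood at a log2 fold change of 0.14 with groups that did not overlap (limma adjusted p = 0.0990), and CDC25A, the phosphatase that removes inhibitory phosphates from CDK2, stood at 0.16 (limma adjusted p = 0.0951). Given the set factor, RB1, CDK2 and CDC25A passed, at log2 fold changes of 0.13 (limma adjusted p = 0.0143), 0.12 (limma adjusted p = 0.0457) and 0.18 (limma adjusted p = 0.0112), whereas E2F1 did not, at 0.052 (limma adjusted p = 0.329). Over the 11 genes of this role 3 were higher (27.3%) and 1 was lower (9.09%), beside 15.2% and 16.8% of all genes.

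**Figure D2:**
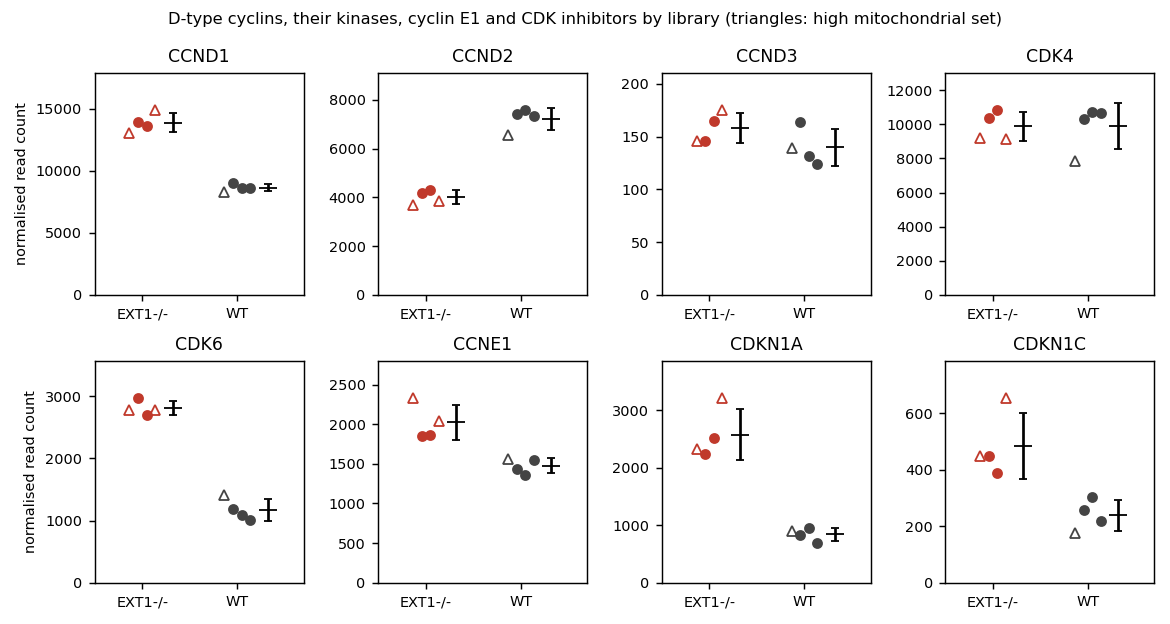
Normalised read counts (y axes, each from 0) of the D-type cyclins, CDK4, CDK6, cyclin E1 and 2 CDK inhibitors in each library of EXT1-/- cells (left) and WT cells (right), with the mean and SD of 4 libraries; open triangles are the high mitochondrial set. CCND1, CDK6, CCNE1, CDKN1A and CDKN1C are higher in every EXT1-/- library, CCND2 is lower in every one, and CCND3 and CDK4 overlap.

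CDK inhibitors, which are not among the 47 but act on the same kinases, were set beside them from a list of 8, of which 5 were measured. CDKN1A encodes p21, which binds cyclin-CDK complexes and PCNA. It had 2326, 2234, 2516 and 3212 normalised counts in EXT1-/- replicates 1 to 4, against 894, 836, 961 and 695 in WT replicates 1 to 4, 3.04-fold apart with no overlap (log2 fold change 1.60 ± 0.13 (SE), limma adjusted p = 3.87e-05). CDKN1C, for p57, had 450, 447, 388 and 653 normalised counts in EXT1-/- replicates 1 to 4, against 175, 256, 304 and 219 in WT replicates 1 to 4, also with no overlap (log2 fold change 1.02 ± 0.20 (SE), limma adjusted p = 0.00479). The CDKN1C difference was 0.69 on the log2 scale within the low set. Between the 2 EXT1-/- libraries and the 1 WT library of the high set it was 1.63. CDKN2D, another inhibitor, was higher too (log2 fold change 0.97, limma adjusted p = 0.00650), but it was scarce. It had 70, 69, 67 and 54 normalised counts in EXT1-/- replicates 1 to 4, against 24, 32, 33 and 44 in WT replicates 1 to 4. At the mean total 1 CPM is 38.9 normalised counts, so its WT values lay near the floor of 1 CPM. CDKN3, a phosphatase that acts on CDK2 and CDK1, was lower (log2 fold change -0.42, limma adjusted p = 0.0200), and CDKN1B, for p27, stood at 0.0048 (limma adjusted p = 0.960). CDKN2A, CDKN2B and CDKN2C were not analysed here.

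Of 10 origin licensing genes, 5 were higher in EXT1-/- cells (50.0%, beside 15.2% of all genes) and 0 were lower (beside 16.8%). All 10 had a positive log2 fold change, with a median of 0.20. MCM2, a subunit of the hexameric helicase, had 7674, 8177, 7739 and 8248 normalised counts in EXT1-/- replicates 1 to 4, against 6193, 6235, 6446 and 5930 in WT replicates 1 to 4 (log2 fold change 0.36 ± 0.050 (SE), limma adjusted p = 0.000731). MCM4, another subunit, had 19877, 19005, 18907 and 19035 normalised counts in EXT1-/- replicates 1 to 4, against 16545, 16019, 15545 and 15819 in WT replicates 1 to 4 (log2 fold change 0.27 ± 0.045 (SE), limma adjusted p = 0.00217). CDC6, the ATPase that helps load that helicase, had 5351, 5092, 4807 and 4639 normalised counts in EXT1-/- replicates 1 to 4, against 4178, 3934, 3744 and 3968 in WT replicates 1 to 4 (log2 fold change 0.33 ± 0.061 (SE), limma adjusted p = 0.00370). In these 3 genes the lowest EXT1-/- library lay above the highest WT library. MCM5 showed the largest fold change of the subunits at 0.51 (limma adjusted p = 0.0142). Given the set factor MCM5 was at 0.42 (limma adjusted p = 6.75e-05), and it was higher in the high set by 0.35. MCM7 was higher by 0.14 (limma adjusted p = 0.0364). The MCM7 call was lost in 6 of the 8 fits that left out 1 library, with limma adjusted p between 0.0684 and 0.0962. MCM3 was at 0.037 (limma adjusted p = 0.557) and MCM6 at 0.13 (limma adjusted p = 0.313). The 6 subunits form 1 ring, and without the set factor their log2 fold changes ran from 0.037 to 0.51.

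The remaining licensing genes did not pass. ORC1, the largest subunit of the origin recognition complex, was at 0.12 (limma adjusted p = 0.0997). CDT1, the loader that is destroyed in S phase, was at 0.42 (limma adjusted p = 0.134), and it varied widely: 1945 to 3357 normalised counts in EXT1-/- libraries and 1390 to 2290 in WT libraries. GMNN, for geminin, which inhibits CDT1, was at 0.12 (limma adjusted p = 0.338). Given the set factor, 8 of the 10 were higher (80.0%, beside 26.2% of all genes), CDT1 and MCM3 being the others.

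Genes of origin firing and the replisome followed, with 3 of 5 higher (60.0%, beside 15.2% of all genes), 0 lower, and a median of 0.28. MCM10, which helps turn the loaded helicase into a moving fork, had 2673, 2618, 2545 and 2468 normalised counts in EXT1-/- replicates 1 to 4, against 2284, 2054, 2017 and 2049 in WT replicates 1 to 4 (log2 fold change 0.30 ± 0.058 (SE), limma adjusted p = 0.00478). CDC45, which binds the MCM ring in the active helicase, had 1404, 1203, 1051 and 1254 normalised counts in EXT1-/- replicates 1 to 4, against 995, 874, 818 and 859 in WT replicates 1 to 4 (log2 fold change 0.47 ± 0.10 (SE), limma adjusted p = 0.00675). GINS2, a subunit of the GINS complex, had 3268, 2946, 2905 and 3182 normalised counts in EXT1-/- replicates 1 to 4, against 2611, 2548, 2496 and 2486 in WT replicates 1 to 4 (log2 fold change 0.28 ± 0.056 (SE), limma adjusted p = 0.00528). The genotypes did not overlap in any of these 3. GINS1, another GINS subunit, did not pass (log2 fold change -0.15, 95% interval -0.42 to 0.12, limma adjusted p = 0.362). PCNA, the sliding clamp that tethers DNA polymerases, had 10986, 11439, 11534 and 9800 normalised counts in EXT1-/- replicates 1 to 4, against 8207, 9470, 9555 and 10071 in WT replicates 1 to 4. Its groups overlapped, through EXT1-/- replicate 4 at 9800 and WT replicate 4 at 10071, and it missed the threshold in 8 libraries (log2 fold change 0.23, 95% interval 0.051 to 0.41, limma adjusted p = 0.0540). PCNA passed in the fit with the set factor, at 0.28 (limma adjusted p = 0.000583).

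Per kilobase of exon PCNA had the highest level of the 47 genes, at 7437 in EXT1-/- cells and 6339.7 in WT cells, followed by MCM3 at 5447 in EXT1-/- cells and 5308 in WT cells. CCND3 had the lowest level, at 27.2 in EXT1-/- cells and 24.1 in WT cells, and CCNE2 the next, at 39.1 in EXT1-/- cells and 40.3 in WT cells. CDK6, with the largest fold change, came next above CCNE2, at 229 in EXT1-/- cells and 95.4 in WT cells. CCND1 and CCND2 were neither the most nor the least abundant of the 47.

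Among the 4 enzymes of deoxynucleotide supply, 2 were higher (50.0%, beside 15.2% of all genes) and 2 did not pass. RRM2, the regulated subunit of ribonucleotide reductase, had 6297, 6114, 6078 and 6316 normalised counts in EXT1-/- replicates 1 to 4, against 4505, 4336, 4536 and 4663 in WT replicates 1 to 4 (log2 fold change 0.46 ± 0.046 (SE), limma adjusted p = 0.000101). RRM1, the larger subunit of the same enzyme, was at 0.016 (limma adjusted p = 0.887). TK1, the thymidine kinase that salvages thymidine in S phase, had 2473, 2583, 2567 and 2281 normalised counts in EXT1-/- replicates 1 to 4, against 1575, 1953, 2067 and 1852 in WT replicates 1 to 4 (log2 fold change 0.42 ± 0.089 (SE), limma adjusted p = 0.00698). In RRM2 and TK1 the genotypes did not overlap. TYMS, for thymidylate synthase, which makes dTMP from dUMP, was at -0.026 (95% interval -0.13 to 0.076, limma adjusted p = 0.696).

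Because E2F factors are known to act at the promoters of many of these replication genes, their promoters were read from the RefSeq table of GRCh38.p14, which held 38 of the 47 genes. Matches were counted on both strands in the 250 bases before the start, for the E2F-type words TTTCCCGC, TTTCGCGC, TTTGCCGC and TTTGGCGC. Such a word was present in 7 of the 17 matched genes of licensing, replisome and nucleotide supply (41.2%), in 0 of 13 mitotic genes and in 2 of 7 G1 regulators, against 2.79% of all 27305 promoters. MCM7 and GINS2, called higher, held such a word, and so did CDT1, MCM3, MCM6, PCNA and TYMS, which did not pass. CDC6, MCM2, MCM10, CDC45, RRM2 and TK1, also called higher, held none. MCM4 and MCM5, called higher too, were not among the 38 genes with a promoter and could not be read. A match is a description of the letters and not a bound site. The last 200 bases before the start are shown for 3 of the replication genes, MCM7 and GINS2, which were called higher, and PCNA, with E2F-type words, CHR words (TTTGAA) and CCAAT boxes of either strand in capitals.
MCM7 promoter, chr7:100101398-100101597, minus strand: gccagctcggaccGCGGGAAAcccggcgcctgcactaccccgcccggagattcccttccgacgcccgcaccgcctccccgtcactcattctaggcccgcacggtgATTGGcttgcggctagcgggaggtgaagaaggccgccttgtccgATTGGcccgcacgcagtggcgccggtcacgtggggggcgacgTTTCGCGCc
GINS2 promoter, chr16:85688955-85689154, minus strand: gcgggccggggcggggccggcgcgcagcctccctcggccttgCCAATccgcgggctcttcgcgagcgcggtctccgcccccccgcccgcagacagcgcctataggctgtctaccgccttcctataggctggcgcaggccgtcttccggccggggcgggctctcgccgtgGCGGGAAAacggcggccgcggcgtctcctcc
PCNA promoter, chr20:5126623-5126822, minus strand: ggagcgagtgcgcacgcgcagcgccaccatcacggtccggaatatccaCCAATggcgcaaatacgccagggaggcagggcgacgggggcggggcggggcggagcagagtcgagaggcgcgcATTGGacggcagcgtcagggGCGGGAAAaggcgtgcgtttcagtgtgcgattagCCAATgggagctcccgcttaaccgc

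The CDK6 promoter, from the gene with the largest fold change, is shown in the same way and held none of these words in its 200 bases, so all letters are in lower case.
CDK6 promoter, chr7:92836574-92836773, minus strand: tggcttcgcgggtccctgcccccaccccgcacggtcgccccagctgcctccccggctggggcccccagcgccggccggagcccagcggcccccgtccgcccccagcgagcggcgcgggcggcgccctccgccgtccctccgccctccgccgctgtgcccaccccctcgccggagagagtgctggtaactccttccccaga

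**Figure D3:**
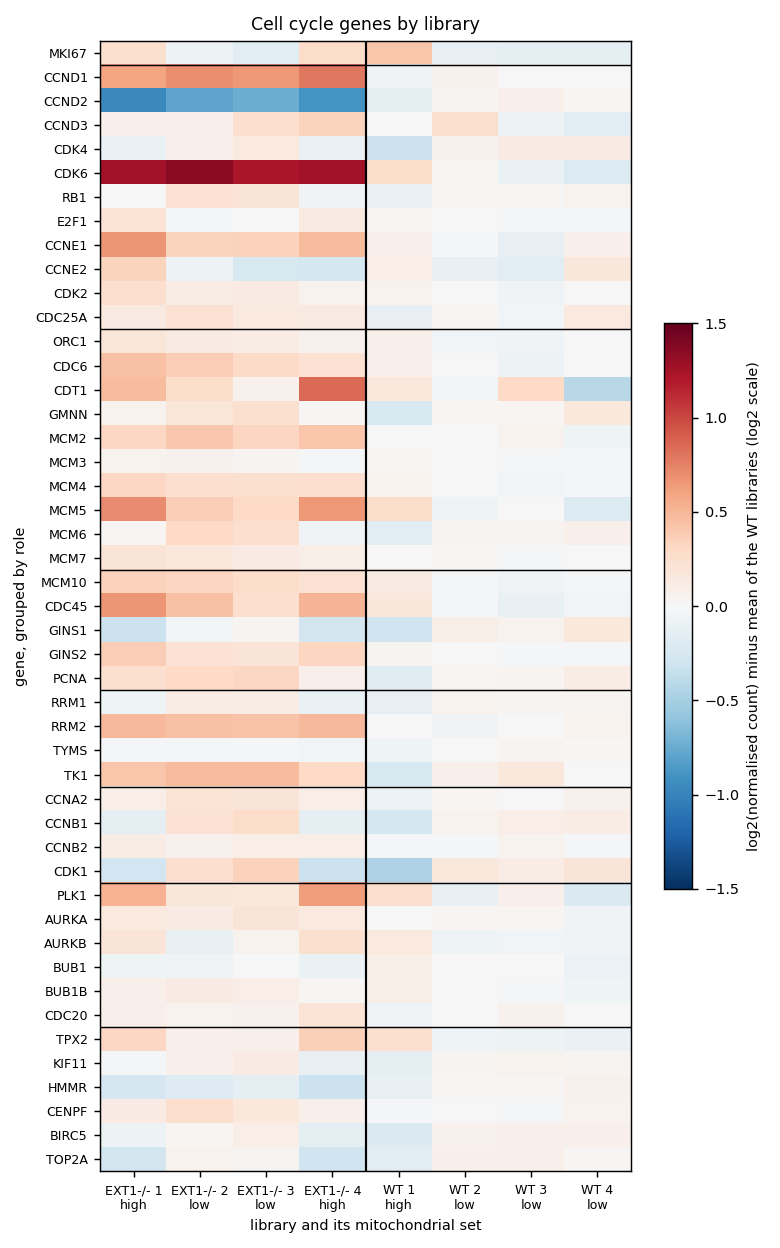
Log2(normalised count) of the 47 genes (rows, grouped by role) in each library (columns, EXT1-/- left and WT right, with the mitochondrial set), minus the mean of the WT libraries; red is higher and blue is lower. CDK6, CCND1 and CCND2 differ in all 4 EXT1-/- libraries, replication genes are mostly pale red there, and CDK1 is blue in EXT1-/- replicates 1 and 4 and WT replicate 1.

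Mitotic genes gave fewer calls. Of 16 genes in the 3 mitotic roles, 1 was higher (6.25%), 1 was lower and 14 did not pass. The shares of all genes were 15.2% higher and 16.8% lower. The median log2 fold change was 0.086. Of the 19 replication genes above, 10 were higher (52.6%) and 0 were lower, with a median of 0.27. The difference between the roles was not tested. Given the set factor, 14 of the 19 replication genes (73.7%) and 8 of the 16 mitotic genes (50.0%) were higher. The share of all genes was 26.2% in that fit, and the gap between the roles was narrower there.

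None of the 4 mitotic cyclins and CDK1 genes passed in 8 libraries. CDK1, the kinase that drives entry into mitosis, had 4902, 7140, 7630 and 4788 normalised counts in EXT1-/- replicates 1 to 4, against 4356, 6667, 6443 and 6874 in WT replicates 1 to 4 (log2 fold change -0.0021, 95% interval -0.45 to 0.45, limma adjusted p = 0.994). The 3 libraries of the high set had the 3 lowest values, and within each set the EXT1-/- libraries were on average higher, by 0.15 in the low set and by 0.15 in the high set on the log2 scale. CCNB1, for cyclin B1, its main partner, had the same pattern, with 9023, 11581, 12033 and 9088 normalised counts in EXT1-/- replicates 1 to 4, against 8261, 10331, 10653 and 10744 in WT replicates 1 to 4 (log2 fold change 0.057, 95% interval -0.23 to 0.34, limma adjusted p = 0.763). CCNA2, for cyclin A2, which serves CDK2 and CDK1, was at 0.15 (limma adjusted p = 0.0689), and CCNB2, for cyclin B2, was at 0.10 (limma adjusted p = 0.125); in both the groups did not overlap. Given the set factor, all 4 were higher, beside 26.2% of all genes. Their log2 fold changes were 0.17 (limma adjusted p = 0.000603) for CCNA2 and 0.15 (limma adjusted p = 0.00183) for CCNB1. In that fit CCNB2 was at 0.095 (limma adjusted p = 0.0243) and CDK1 at 0.15 (limma adjusted p = 0.00545).

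Of 6 mitotic kinase, checkpoint and APC/C genes, 1 was higher (16.7%), near the 15.2% of all genes called higher. AURKA, the Aurora kinase of centrosomes and spindle poles, had 4016, 3968, 4162 and 4041 normalised counts in EXT1-/- replicates 1 to 4, against 3657, 3703, 3707 and 3503 in WT replicates 1 to 4 (log2 fold change 0.15 ± 0.045 (SE), limma adjusted p = 0.0320). The groups did not overlap, but the call was lost in 7 of the 8 fits that left out 1 library, with limma adjusted p between 0.0514 and 0.0905. PLK1, the Polo-like kinase of mitotic entry and spindle assembly, had 5411, 4247, 4205 and 5810 normalised counts in EXT1-/- replicates 1 to 4, against 4486, 3501, 3979 and 3231 in WT replicates 1 to 4 and did not pass (log2 fold change 0.37, 95% interval 0.057 to 0.68, limma adjusted p = 0.0706). It passed in the fit with the set factor, at 0.27 (limma adjusted p = 0.00487). AURKB, the kinase of the chromosomal passenger complex, was at 0.093, BUB1 and BUB1B, kinase-family proteins of the spindle checkpoint, were at -0.056 and 0.079, and CDC20, the activator of the APC/C ubiquitin ligase, was at 0.10. Their limma adjusted p-values lay between 0.197 and 0.45.

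Of 6 spindle, kinetochore and chromosome genes, 1 was lower (16.7%), near the 16.8% of all genes called lower. HMMR, a spindle-associated protein first described as a hyaluronan receptor, had 3964, 4105, 4231 and 3762 normalised counts in EXT1-/- replicates 1 to 4, against 4368, 4786, 4747 and 4925 in WT replicates 1 to 4, with no overlap (log2 fold change -0.23 ± 0.059 (SE), limma adjusted p = 0.0176). Without WT replicate 2, 3 or 4 the call was lost, at limma adjusted p of 0.0571, 0.0503 and 0.0532. TOP2A, the topoisomerase that untangles sister chromatids, had 20229, 25398, 25203 and 19874 normalised counts in EXT1-/- replicates 1 to 4, against 21701, 25659, 25739 and 24777 in WT replicates 1 to 4, with overlap (log2 fold change -0.12, 95% interval -0.35 to 0.11, limma adjusted p = 0.421). Its 3 lowest values were those of the high set, as in CDK1. CENPF, a kinetochore protein, was at 0.15 with groups that did not overlap (limma adjusted p = 0.0569). TPX2, which activates Aurora A on spindle microtubules, was at 0.20 (limma adjusted p = 0.147), KIF11, the kinesin that pushes spindle poles apart, was at 0.015 (limma adjusted p = 0.892), and BIRC5, for survivin, was at -0.022 (limma adjusted p = 0.868).

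The promoters of mitotic genes are known for the cell cycle genes homology region (CHR, searched as TTTGAA), bound by the MuvB complex, and for CCAAT boxes, bound by NF-Y. In the same windows of 250 bases, TTTGAA was present in 8 of the 13 matched mitotic genes (61.5%) and in 1 of the 17 matched replication genes, against 13.6% of all promoters. CCAAT was present in 12 of the 13 mitotic genes and in 12 of the 17 replication genes, against 33.0% of all promoters. Both words were present in 7 of the 13 mitotic genes, against 4.85% of all promoters. Windows of 200 bases before the start are shown for 3 mitotic genes described above, CCNB2, CDK1 and TOP2A, with the same words of either strand in capitals.
CCNB2 promoter, chr15:59104946-59105145, plus strand: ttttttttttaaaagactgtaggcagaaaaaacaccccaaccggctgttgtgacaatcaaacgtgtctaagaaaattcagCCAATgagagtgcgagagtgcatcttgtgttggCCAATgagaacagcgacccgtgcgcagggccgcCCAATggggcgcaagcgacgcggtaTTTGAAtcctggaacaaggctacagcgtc
CDK1 promoter, chr10:60778131-60778330, plus strand: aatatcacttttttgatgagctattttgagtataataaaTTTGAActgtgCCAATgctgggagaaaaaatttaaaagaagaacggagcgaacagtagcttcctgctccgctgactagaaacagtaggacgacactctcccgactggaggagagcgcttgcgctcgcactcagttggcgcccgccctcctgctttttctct
TOP2A promoter, chr17:40417897-40418096, minus strand: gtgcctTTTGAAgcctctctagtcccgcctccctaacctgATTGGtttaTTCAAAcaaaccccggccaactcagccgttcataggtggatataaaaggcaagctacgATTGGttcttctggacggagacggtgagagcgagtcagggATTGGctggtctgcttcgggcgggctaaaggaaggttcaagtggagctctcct

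For some of these genes the library sets differed more than the genotypes. In 19 of the 47, the difference between the high and the low set exceeded the difference between the genotypes in size. Both were taken from the fit with the set factor. The same count was not made over all genes, so it is not read as particular to the 47. CDK1 was lower in the high set by 0.61 on the log2 scale, with a genotype difference of 0.15, and MKI67 was higher in the high set by 0.46. By contrast RRM2 differed by 0.027 between the sets and by 0.45 between genotypes, and MCM2 by -0.00061 between the sets and by 0.36 between genotypes. Over the 47 genes the set difference had a Spearman correlation of 0.40 with the GC content of the transcript, and 0.57 over 13413 genes with a coding transcript; the points of each correlation come from the same 8 libraries. The genotype was not balanced over the sets, with 1 WT library in the high set.

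**Figure D4:**
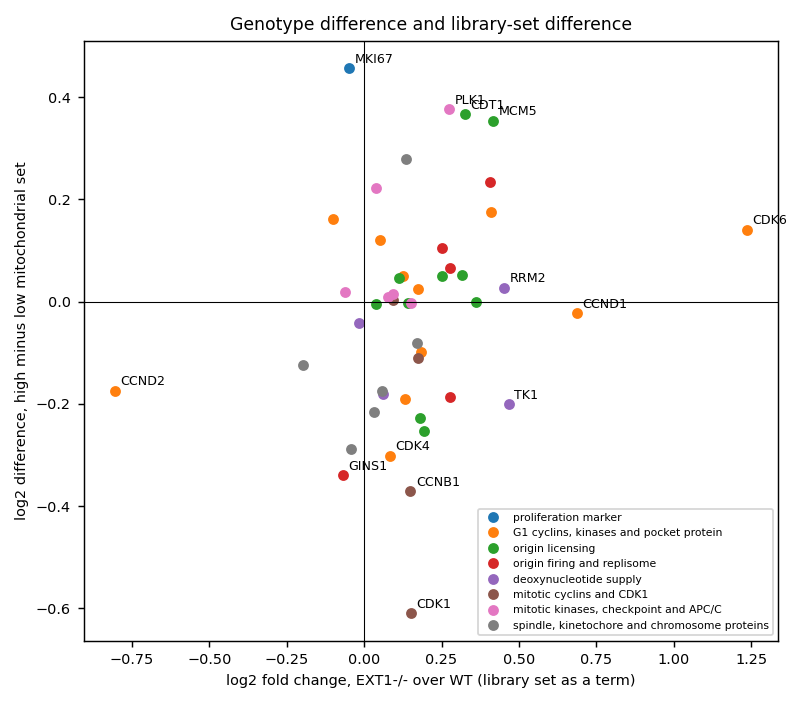
Log2 difference between the genotypes, EXT1-/- over WT (x axis), against the log2 difference between the high and the low mitochondrial set (y axis), both from 1 limma fit with both terms; each point is 1 of the 47 genes, coloured by role. CDK1 at -0.61 and MKI67 at 0.46 lie farthest from 0 on the y axis, while CDK6, CCND1 and CCND2 lie farthest from 0 on the x axis.

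Other genes of the pathway, from lists of 138 in all, were measured for 135, including the CDK inhibitors above. Of the 135, 32 were higher in EXT1-/- cells (23.7%), 2 were lower (1.48%) and 101 did not pass; their median log2 fold change was 0.11. Among all genes 15.2% were higher and 16.8% were lower. The shares called higher were above that background in the lists of CDK inhibitors (60.0%), licensing (47.1%) and entry into mitosis (33.3%). They were also above it in the polymerase list (27.3%). They were near it in the cohesin and condensin (21.1%, 4 of 19), the E2F (17.6%) and the kinesin and centromere (13.8%) lists. The share was below it in the checkpoint and APC/C list (5.88%). Given the set factor, the shares ran from 35.3% (checkpoint and APC/C) to 76.5% (licensing), beside 26.2% of all genes. No list was tested as a set. The genes named are those with the smallest adjusted p in their list, which need not have its largest fold change. Among other licensing and helicase genes 8 of 17 were higher and 0 lower, with the smallest adjusted p in CLSPN, for the fork protein claspin (log2 fold change 0.45, limma adjusted p = 0.00151), and GINS3 (log2 fold change 0.35, limma adjusted p = 0.00590). Among polymerases, clamp loader, RPA and Okazaki fragment enzymes 6 of 22 were higher and 0 lower, with the smallest adjusted p in POLD3, a subunit of DNA polymerase δ (log2 fold change 0.28, limma adjusted p = 0.00358), and the primase subunit PRIM1 (log2 fold change 0.23, limma adjusted p = 0.0160). Among E2F, DP, pocket and MuvB genes 3 of 17 were higher and 0 lower, among them TFDP2, an E2F dimer partner (log2 fold change 0.60, limma adjusted p = 6.27e-05), and E2F8, an E2F repressor (log2 fold change 0.79, limma adjusted p = 0.00150).

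The other lists hold mitotic genes, and their counts stand beside 15.2% of all genes called higher and 16.8% called lower. Among kinesins, centromere and cytokinesis genes 4 of 29 were higher and 0 lower, with CENPM (log2 fold change 0.41, limma adjusted p = 0.00346) and the kinesin KIF20A (log2 fold change 0.35, limma adjusted p = 0.00555) smallest in adjusted p. Among spindle checkpoint and APC/C subunits 1 of 17 was higher, the APC/C activator FZR1 (log2 fold change 0.42, limma adjusted p = 0.0225). Among genes of entry into mitosis 3 of 9 were higher, among them CCNF, for cyclin F (log2 fold change 0.36, limma adjusted p = 0.00375), and the phosphatase CDC25B (log2 fold change 0.23, limma adjusted p = 0.0302). Among cohesin and condensin genes 4 of 19 were higher, with the cohesin subunit SMC3 (log2 fold change 0.34, limma adjusted p = 0.00181) and separase, encoded by ESPL1 (log2 fold change 0.33, limma adjusted p = 0.00394), smallest in adjusted p, and 1 was lower, the cohesin subunit STAG2 (log2 fold change -0.45, limma adjusted p = 0.0199).

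By the authors' deposited table, 13 of the 47 genes were higher and 1 was lower in EXT1-/- cells at an FDR below 0.05, beside 12.6% and 13.6% of all its genes. Of these 14 genes, 12 were called by limma too. The authors' deposited table alone called CDT1 (FDR 0.0484) and PLK1 (FDR 0.0238), and limma alone called MCM4, MCM7, AURKA and HMMR, whose FDR in the authors' deposited table was 0.0655, 0.360, 0.233 and 0.0626 in that order.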

How the data were processed

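Stranded total RNA libraries were made from 4 EXT1-/- and 4 WT samples, per the labels' protocols. STAR, RSEM and edgeR, without versions, and the GRCh38.p10 build are named per the submitters' processing notes. The authors deposited 1 table of 15811 genes with 8 columns of a normalised signal, whole numbers called normalised counts here, and 0 columns of other samples. The table also holds the authors' deposited log2 fold change and log2 CPM, a likelihood ratio score, and a p-value and an FDR, which is an adjusted p-value. The lowest second-highest value of any gene was 1.00 CPM, so scarcer genes had been left out.

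The design foresaw a count test; since the deposited signal is not raw counts, limma 3.58.1 (R 4.3.3) with an intensity trend was fitted to log2(value + 1) of all genes, with genotype alone as a term; p-values were adjusted by Benjamini-Hochberg over 15811 genes (threshold 0.05). Fold changes are on that scale, which understates low genes. Python 3.11.15 was used for tables. The sets of libraries were split at the largest gap in the mitochondrial share. GENCODE 29 matched 15777 genes (99.8%). The fit was also run on simulated counts without library sets, a check of the code that does not measure its error rate in these data.

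The 47 genes and all lists were chosen with earlier results of these data known. Values in every library were given for up to 3 called genes with the smallest adjusted p per role and for 12 genes always named, and for up to 2 called genes per direction in each other list, by fold change and adjusted p. MCM5, CDT1, PLK1, CCNB1 and CDKN2D were singled out after their values were seen. Alternatives were other scalings, pseudocounts, a filter, limma-voom, a replicate block, a set term, the low set alone and each library left out.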

Additional observations from a re-analysis of the deposited data

Results flagged for a closer look

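Over 64 genes (the 47 and the named genes of the other lists) and both genotypes, 128 groups of 4 libraries were looked at, and in 15 of them 1 library lay apart from the other 3 by a gap above Dixon's 95% critical value for its share of the group's range; chance gives about 1 in 20 such groups. Of the 15, 10 were WT replicate 1, the only WT library with a high mitochondrial share (10.67%). In normalised counts, with the range of the other 3 WT libraries, WT replicate 1 was highest in MKI67 (17483, against 11842 to 11982), MCM10 (2284, against 2017 to 2054), AURKB (3170, against 2743 to 2788) and TPX2 (13492, against 10635 to 10963), and it was lowest in CDK4 (7880, against 10292 to 10709), MCM6 (5856, against 6722 to 6894), RRM1 (6359, against 7101 to 7155), CCNB1 (8261, against 10331 to 10744), KIF11 (4845, against 5455 to 5531) and BIRC5 (4957, against 6020 to 6060). MCM10 is the 1 of these 10 genes that was called different between the genotypes. The part of the mitochondrial share in these values was not tested.

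CDC25A was highest in EXT1-/- replicate 2, at 3935, against 3680 to 3710 in the other libraries of that genotype. MCM4 was highest in EXT1-/- replicate 1, at 19877, against 18907 to 19035 in the other libraries of that genotype. CCNB2 was lowest in EXT1-/- replicate 2, at 5661, against 5803 to 5818 in the other libraries of that genotype. CCNB2 was highest in WT replicate 3, at 5587, against 5325 to 5359 in the other libraries of that genotype. CCNF was lowest in WT replicate 4, at 1756, against 1953 to 1990 in the other libraries of that genotype.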

How the results depend on the processing

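Of the 16 genes called, 13 kept their call in all settings run; MCM7, AURKA and HMMR did not, and MCM7 and AURKA also lost it with upper-quartile factors (limma adjusted p = 0.0833 and 0.0649). With a term for the library set, 8195 of all genes passed in place of 5063, and 28 of the 47 were higher; in the low set alone 26 were higher. Leaving out 1 library gave 3721 to 6041 of all genes, 12 to 17 of the 47 higher, 1 to 2 lower, and a median log2 fold change of 0.12 to 0.15. The replicate numbers did not pair the libraries (correlations of same-numbered deviations 0.78, 0.44, 0.26 and -0.65), and EXT1-/- replicates 1 to 4 matched best WT replicates 1, 4, 4 and 1; the replicate block gave 4934 of all genes, 12 of the 47 higher, 2 lower, and a median of 0.13, and MCM7 and AURKA lost their call (limma adjusted p = 0.0626 and 0.0601).

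Signs changed in 8 genes not called in 8 libraries. MKI67 was -0.048 with the set term and -0.0024 to 0.20 with 1 library left out. CDK4 was -0.012 with upper-quartile factors and -0.10 to 0.049 with 1 library left out. CCNE2 was -0.19 to 0.0086 with 1 library left out. RRM1 was -0.0031 with upper-quartile factors and -0.025 to 0.054 with 1 library left out. CCNB1 was -0.032 to 0.12 with 1 library left out. CDK1 was 0.010 with equal totals without mitochondrial genes, 0.15 with the set term, 0.15 in the low set alone and -0.16 to 0.10 with 1 library left out. KIF11 was -0.0036 with upper-quartile factors and -0.030 to 0.057 with 1 library left out. BIRC5 was 0.032 with the set term and -0.093 to 0.015 with 1 library left out. CDK1 passed with the set term and in the low set (limma adjusted p = 0.00545 and 0.0294). The cause was not tested. DESeq2 and the edgeR count test were left out, since the deposited values are no counts. Values near the floor of 1 CPM and genes below it cannot be read from these libraries.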
